A study of Homo sapiens with 4 samples.

Results

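Messenger RNA levels of the core genes of the PI3K, AKT and mTOR pathway were compared between cultures of SCC-15, a human cell line from a squamous carcinoma of the tongue, that received a microRNA mimic and cultures that received a negative control (miR-NC). The members were 33 genes of the pathway, listed by name with earlier results of these data known, so the list carries no test. Their probe sets were those that the platform annotation maps to exactly 1 of them. This gave 135 of the 49293 probe sets on the arrays, and they covered 31 of the 33 genes, so PIK3CA and PIK3R2 were not analysed here. Each group comprised 2 Affymetrix arrays, from cells transfected at 30 nM and collected 36 h later. The series title and design text call the mimic miR-762, whereas the labels of both mimic arrays call it miR-585-5p, and it is called the mimic here. No label says whether replicate arrays came from separate cultures. The p-values therefore reflect only how far arrays of a group lay apart, and that distance may be technical. That distance was taken from the gene itself and, through limma's moderated variance, from all genes tested.

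Class I PI3K is a lipid kinase that receptors recruit to the membrane through adaptors such as the insulin receptor substrates. Its product, the membrane lipid PIP3, brings AKT to its activating kinase PDK1, and inositol phosphatases remove it. AKT relieves the block that the TSC complex places on RHEB, the small GTPase that switches on mTOR complex 1 at the lysosome, where Rag GTPases report amino acids. That complex then phosphorylates the S6 kinases and the 4E-BP proteins, which set the rate of translation. The pathway is often active in squamous carcinomas of the head and neck. Most of its control lies in phosphorylation, which expression arrays do not measure.

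The mature sequences of both microRNAs named for the mimic are shown because the name decides which seed, the stretch from base 2 to base 8 that pairs with target transcripts, was introduced. They are RefSeq sequences on GRCh38.p14, 5′ to 3′, with the seed in capitals. The miR-762 gene segment lies on the plus strand at chr16:30893951-30893972 and that of miR-585-5p on the minus strand at chr5:169263649-169263670.
hsa-miR-762: gGGGCUGGggccggggccgagc
hsa-miR-585-5p: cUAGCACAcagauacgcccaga
The 22 bases of each share no seed, and 90.9% of the bases of miR-762 and 54.5% of those of miR-585-5p are G or C. No transcript sequence was used, so matches of either seed in the members' transcripts were not analysed here.

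All values are log2 RMA intensities, and all differences are mimic minus control on that scale. Each gene was represented by its brightest probe set. The 4 arrays had median intensities between 17.2 and 17.5, and the correlation across probe sets was 0.998 between the mimic arrays and 0.997 between the control arrays. Of 10 squamous markers, 7 had a probe set, all above the dim level, and 4 of the 7 were higher in the mimic arrays. They averaged 9.93 and 9.95 in the mimic arrays and 9.62 and 9.51 in the control arrays, with gene means between 7.70 (DSC3) and 12.07 (KRT5). The dim level, under which probe sets were left out of the tests, was 2.83. Of the leukocyte markers, 3 of 11 were below it, and gene means ran between 1.36 (PTPRC) and 5.10 (CD14). Of the fibroblast and endothelial markers, 5 of 12 were below it (1.13 for LUM to 4.83 for VWF over the list), and 0 of the 7 tested passed in limma (1 at an unadjusted p under 0.05).

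In the mimic arrays 7 of 31 members rose, 3 fell and 21 did not pass (limma, Benjamini-Hochberg adjusted p under 0.05 over 14340 genes). The genes that rose were PIK3R1, DEPTOR, RPS6KB1, IRS1, EIF4EBP1, RHEB and DDIT4, and those that fell were INPPL1, RRAGC and PIK3CD. This is 32.3% of members called, beside 30.1% of all genes tested, so the share of members called was near the background. By direction, 22.6% of members rose, beside 17.7% of all genes, and 9.68% fell, beside 12.3% of all genes. The shares of all genes differed with level and are given by level below. On the brightest probe sets, none of the 31 members changed by 2-fold or more, beside 2.26% of all genes that did so and passed. Dimmer probe sets of PIK3R1 exceeded 2-fold, the largest at 2.22-fold. The median difference was 0.14 over the members and -0.02 over all genes. Arrays of the 2 groups did not overlap for 25 members, or 80.6%, beside 70.4% of all genes. With 2 arrays a group, an exact permutation test of 1 gene cannot give a two-sided p below 0.333.

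**Figure D1:**
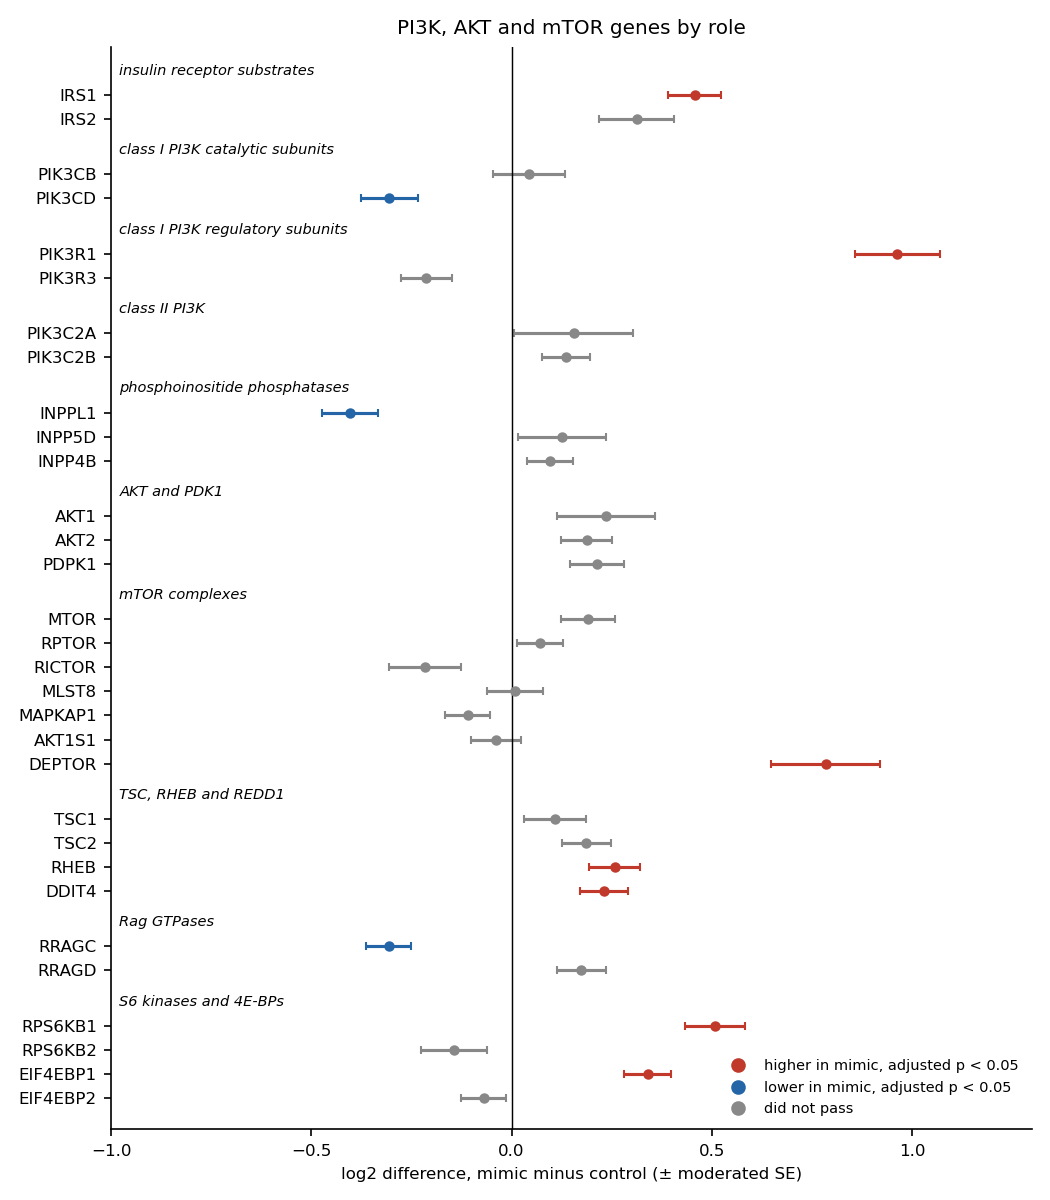
Log2 difference (mimic minus control, horizontal axis) of each of the 31 members tested, grouped by role, with bars for limma's moderated standard error. Red points rose, blue points fell and grey points did not pass. PIK3R1 (0.96) lies farthest to the right and INPPL1 (-0.40) farthest to the left.

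The pathway begins with the adaptors. IRS1, the adaptor that insulin and IGF receptors phosphorylate to dock PI3K, was at 7.85 and 7.87 in the mimic arrays, against 7.46 and 7.35 in the control arrays. Both mimic arrays were above both controls, and the gene rose 1.37-fold (0.46 ± 0.0662 SE, limma adjusted p = 0.0101). Of its 3 probe sets, 2 passed as higher, at 0.46 and 0.55, and the remaining one was at -0.07. Its paralog IRS2 was at 6.93 and 6.78 in the mimic arrays and at 6.64 and 6.45 in the control arrays. The groups did not overlap, but the difference of 0.31 ± 0.0949 did not pass (adjusted p = 0.0633). The second IRS2 probe set gave 0.32 and passed among probe sets (adjusted p = 0.0401), and with the mean of both probe sets in place of the brighter one the gene passed as well (0.32, adjusted p = 0.0204).

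The largest change of any member was that of PIK3R1, which encodes the p85 alpha regulatory subunit that stabilises the catalytic subunits of PI3K and couples them to phosphorylated receptors. It was at 8.37 and 8.36 in the mimic arrays, against 7.55 and 7.26 in the control arrays. The mimic arrays were almost level with each other, and the control arrays were further apart. PIK3R1 rose 1.95-fold (0.96 ± 0.106 SE, limma adjusted p = 0.00509). Of its 8 probe sets, 6 were above the dim level, all 6 had positive differences, and 5 passed, with differences of 0.60, 0.96, 1.08, 1.12 and 1.15. The dimmest of the 6 gave 0.23 and did not pass. Probe sets of 1 gene can overlap in sequence, so they are not independent measurements. PIK3R1 was the only member to pass without control replicate 1 (1.11, adjusted p = 0.0460) and without control replicate 2 (0.82, adjusted p = 0.0431). The other regulatory subunit gene measured, PIK3R3, which encodes p55 gamma, was at 4.54 and 4.45 in the mimic arrays and at 4.69 and 4.73 in the controls. Its difference of -0.21 ± 0.0644 was opposite in sign to that of PIK3R1 and did not pass (adjusted p = 0.0625), although all 3 of its probe sets above the dim level were negative. It passed as lower when the dimmest 50% of probe sets were left out (adjusted p = 0.0405) or after quantile normalization (-0.24, adjusted p = 0.0463).

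Among catalytic subunits, PIK3CD, which encodes the p110 delta isoform best known from leukocytes, fell 1.24-fold. It was at 6.47 and 6.50 in the mimic arrays, against 6.86 and 6.73 in the control arrays, with no overlap (-0.31 ± 0.0704 SE, limma adjusted p = 0.0326). PIK3CD did not pass when the replicate number was added to the model as a block (limma adjusted p = 0.0658). Of its 3 probe sets above the dim level, 2 passed as lower, at -0.31 and -0.49, and the other gave -0.05. Leukocyte markers moved in both directions beside it: CD14 rose by 0.53, TYROBP fell by 0.45 and CD53 fell by 0.25, the calls of TYROBP and CD53 being lost with no dim filter. The summed log2 level of the 11 markers, 3 of them below the dim level, was 36.3 to 36.5 in the mimic arrays and 37.4 to 37.9 in the control arrays. That of the 12 fibroblast and endothelial markers was also lower, at 38.3 to 38.9 in the mimic arrays and 40.4 to 40.6 in the control arrays, and the median difference of all genes in the dimmest of 4 equal groups by level was -0.11. All arrays came from cultures of a single carcinoma cell line, SCC-15. These marker values were therefore not read as numbers of leukocytes or other cells. The leukocyte markers averaged 3.30 and 3.32 in the mimic arrays and 3.44 and 3.40 in the control arrays, near the dim level of 2.83. Whether their differences bear on that of PIK3CD was not tested. PIK3CB, the gene of the widely expressed p110 beta isoform, gave 0.04 ± 0.0895 with overlapping groups (adjusted p = 0.740). The class II kinase genes PIK3C2A and PIK3C2B, whose products work mainly in membrane traffic, gave 0.16 ± 0.149 and 0.14 ± 0.0599 and did not pass.

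The phosphatases oppose PI3K. INPPL1 encodes SHIP2, which removes the 5-phosphate of PIP3, and it had the largest decrease of any member. It was at 7.27 and 7.35 in the mimic arrays, against 7.66 and 7.76 in the control arrays, which did not overlap. It fell 1.32-fold (-0.40 ± 0.0693 SE, limma adjusted p = 0.0155), and all 3 of its probe sets passed as lower, from -0.42 to -0.34. Its haematopoietic paralog INPP5D, which encodes SHIP1, gave 0.13 ± 0.11 with overlapping groups (adjusted p = 0.415). INPP4B, which encodes the phosphatase that removes the 4-phosphate of the SHIP product, gave 0.10 ± 0.0569 (adjusted p = 0.247), and its 5 probe sets above the dim level ranged from -0.29 to 0.18.

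**Figure D2:**
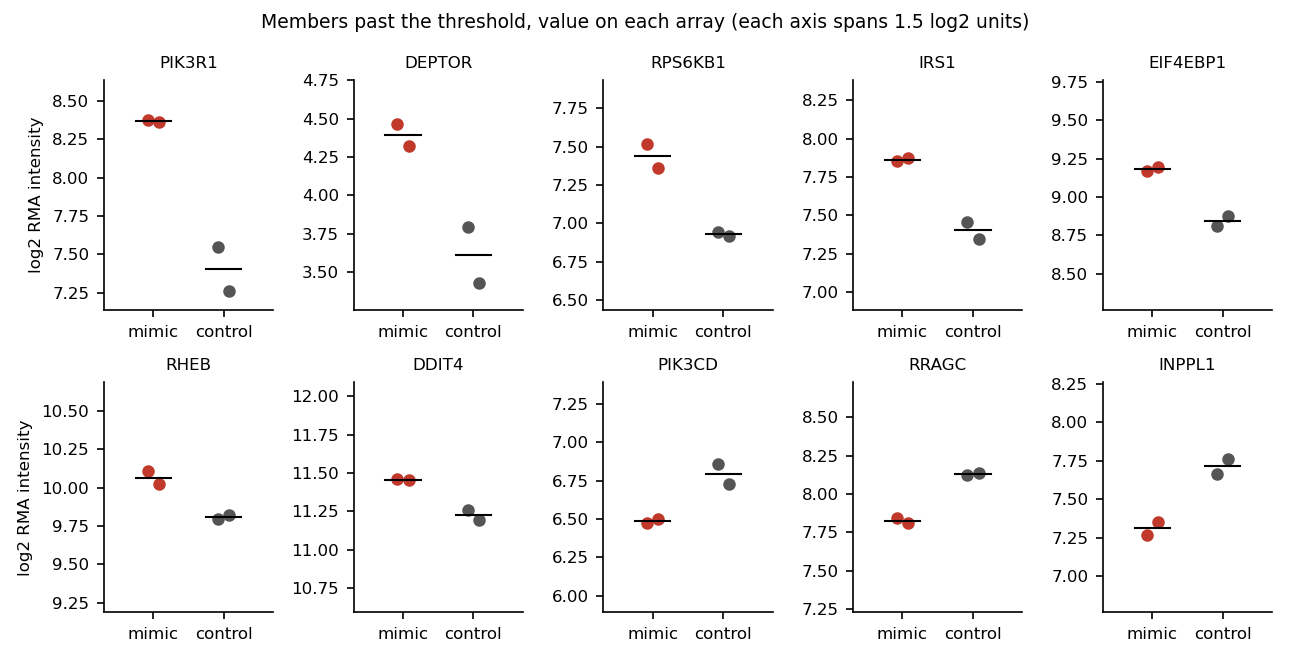
Log2 RMA intensity of the 10 members past the threshold on each array, mimic arrays in red at the left and control arrays in grey at the right of each panel, with a line at the group mean. Every panel spans the same 1.5 log2 units, so that distances compare across genes. In all 10 panels the groups do not overlap.

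The kinases that carry the signal onward did not pass. AKT1 gave 0.24 ± 0.123 (adjusted p = 0.199), with mimic arrays at 6.56 and 6.88 and control arrays at 6.43 and 6.54. AKT2 gave 0.19 ± 0.0628 (adjusted p = 0.0797), and PDPK1, the gene of PDK1, gave 0.21 ± 0.0680 (adjusted p = 0.0703). In all 3 genes the mimic arrays were above the control arrays on the brightest probe set. The other AKT1 probe set above the dim level gave -0.06. The 6 probe sets of PDPK1 ran from -0.13 to 0.22, and with their mean PDPK1 was at 0.05 (limma adjusted p = 0.590). The result for AKT2 also depended on the probe set. Of 8 above the dim level, 7 lay between -0.30 and 0.24 and did not pass. The remaining 1 gave 0.83 and passed among probe sets (adjusted p = 0.0303). That probe set was at 4.57 and 4.73 in the mimic arrays and at 3.57 and 4.07 in the control arrays. It stood for AKT2 when _s_at and _x_at probe sets, which can detect several transcripts, were omitted, and AKT2 then passed as higher (adjusted p = 0.0246). AKT2 also passed with 16 added to each intensity (0.18, adjusted p = 0.0368) and with an intensity trend in the variance model (adjusted p = 0.0263). PDPK1 passed with the dimmest 50% left out (adjusted p = 0.0466) and with 16 added (0.18, adjusted p = 0.0415).

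Of the 7 genes of the mTOR complexes, only DEPTOR, which encodes an inhibitory subunit that binds mTOR in both complexes, passed. It was at 4.47 and 4.32 in the mimic arrays, against 3.79 and 3.43 in the control arrays, with no overlap. It rose 1.72-fold (0.78 ± 0.136 SE, limma adjusted p = 0.0158). A second, dimmer probe set gave 0.25 and did not pass, and it was the DEPTOR value when _s_at and _x_at probe sets were left out (adjusted p = 0.204). With both probe sets averaged DEPTOR was at 0.52, and with 16 added to each intensity at 0.39, and it passed in both settings. The kinase gene MTOR gave 0.19 ± 0.0672 (adjusted p = 0.0888). RPTOR, whose product brings substrates to complex 1, gave 0.07 ± 0.0577, and AKT1S1, the gene of the complex 1 inhibitor PRAS40, gave -0.04 ± 0.0623. RICTOR, the scaffold of complex 2, gave -0.22 ± 0.0902 (adjusted p = 0.130), and MLST8, which is shared by both complexes, gave 0.01 ± 0.0695. MAPKAP1, the gene of the complex 2 subunit SIN1, gave -0.11 ± 0.0563 (adjusted p = 0.194). Its 9 probe sets ran from -0.31 to 0.23, 6 positive and 3 negative, and the lowest of them passed as lower among probe sets (adjusted p = 0.0471). MAPKAP1 as a gene passed as lower after quantile normalization (-0.21, adjusted p = 0.0483), and with the mean of its probe sets its difference was 0.03.

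Upstream of complex 1, both called genes rose by small amounts. RHEB, the GTPase that activates mTOR, was at 10.11 and 10.02 in the mimic arrays, against 9.79 and 9.82 in the control arrays. It rose 1.20-fold (0.26 ± 0.0631 SE, limma adjusted p = 0.0381) on its brightest probe set, while its other 2 probe sets above the dim level gave 0.03 and 0.05. The settings that ended the RHEB call included the mean of its probe sets (0.11, adjusted p = 0.218), the omission of _s_at and _x_at probe sets (0.05, adjusted p = 0.681), no dim filter (adjusted p = 0.0577) and quantile normalization (0.20, adjusted p = 0.0610). DDIT4 encodes REDD1, a stress-induced protein that restrains complex 1 through the TSC complex. It was at 11.46 in both mimic arrays, against 11.26 and 11.19 in the control arrays, and it rose 1.17-fold (0.23 ± 0.0597, adjusted p = 0.0432) on its single probe set. The settings that ended that call included no dim filter (adjusted p = 0.0655), the omission of _s_at and _x_at probe sets (adjusted p = 0.0562) and quantile normalization (0.18, adjusted p = 0.0726). The subunits of the TSC complex gave 0.11 ± 0.0764 for TSC1 and 0.19 ± 0.0621 for TSC2 and did not pass (adjusted p = 0.320 and 0.0780).

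RRAGC, which encodes one of the Rag GTPases that hold complex 1 at the lysosome when amino acids are present, fell 1.24-fold. It was at 7.84 and 7.81 in the mimic arrays, against 8.13 and 8.14 in the control arrays, a gap much wider than the distance between replicates (-0.31 ± 0.0566 SE, limma adjusted p = 0.0185). All 4 of its probe sets were negative, from -0.31 to -0.02, and 1 of them passed. Its call was lost with the mean of the probe sets (-0.19, adjusted p = 0.0594) and without _s_at and _x_at probe sets (-0.19, adjusted p = 0.158). Its paralog RRAGD was at 4.22 and 4.17 in the mimic arrays and 4.05 and 3.99 in the control arrays, and its difference of 0.17 ± 0.0604 did not pass (adjusted p = 0.0859).

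Both kinds of complex 1 substrate had 1 paralog that rose and 1 that did not pass. RPS6KB1, which encodes S6 kinase 1, was at 7.52 and 7.36 in the mimic arrays, against 6.94 and 6.92 in the control arrays. It rose 1.42-fold (0.51 ± 0.0744 SE, limma adjusted p = 0.0104). All 7 of its probe sets were above the dim level, with differences from 0.00 to 0.51, and 2 passed. With their mean the gene was at 0.27 and passed (adjusted p = 0.0257). RPS6KB2, which encodes S6 kinase 2, gave -0.15 ± 0.0825 (adjusted p = 0.232). EIF4EBP1, the gene of the translation repressor that mTOR releases from the cap-binding factor eIF4E, was at 9.17 and 9.19 in the mimic arrays, against 8.81 and 8.87 in the control arrays. It rose 1.27-fold (0.34 ± 0.0593 SE, adjusted p = 0.0162), and its 3 probe sets all passed, from 0.33 to 0.42. EIF4EBP2 gave -0.07 ± 0.0566 (adjusted p = 0.382), and its 5 probe sets lay between -0.07 and 0.11. Whether the paralogs of a pair differed from each other in their response was not tested.

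Over all probe sets of the members, 108 of 135 were above the dim level. Of these, 15 were higher and 7 lower, or 20.4% called, beside 22.4% of the 31711 probe sets tested, with 14.5% of them higher and 7.95% lower. Of the 27 members with several probe sets above the dim level, 14 had the same sign in all of them and 13 had both signs. Among the called members, all 3 probe sets of EIF4EBP1 and of INPPL1 passed, 5 of 6 of PIK3R1, and 2 of 3 of IRS1 and of PIK3CD. For RPS6KB1 2 of 7 passed, for DEPTOR 1 of 2, for RRAGC 1 of 4, for RHEB 0 of 3 and for DDIT4 0 of 1. The brightest probe set of RHEB and the only one of DDIT4 fell short among probe sets (limma adjusted p = 0.0551 and 0.0631).

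**Figure D3:**
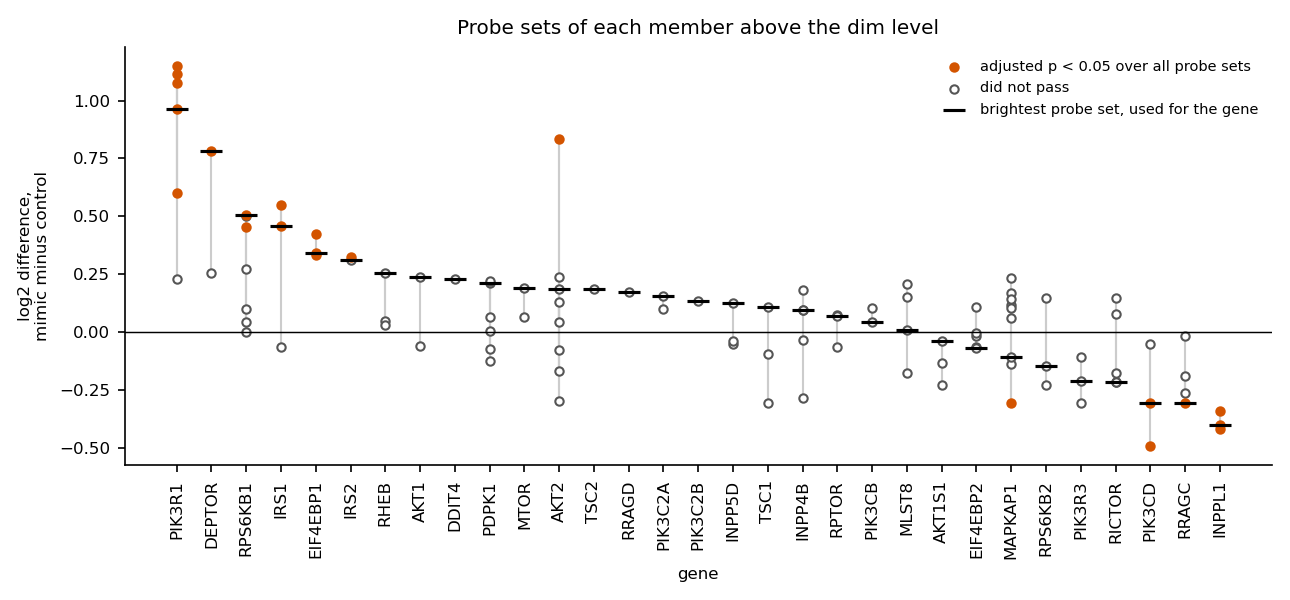
Log2 difference (mimic minus control, vertical axis) of each of the 108 member probe sets above the dim level, genes ordered by the difference of the brightest probe set, which is marked by a bar. Filled points passed among all probe sets and open points did not. The 6 points of PIK3R1 lie between 0.23 and 1.15 and the 3 of INPPL1 between -0.42 and -0.34, whereas the 8 of AKT2 spread from -0.30 to 0.83.

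With all genes split into 4 equal groups by mean level, 2 members lay in the dimmest group, 5 in the next, 16 in the next and 8 in the brightest. The share of all genes called in these groups was 18.8%, 33.2%, 37.3% and 31.0%, and 1, 0, 4 and 5 members were called in them. Of all genes in these groups, 6.03%, 19.8%, 24.9% and 20.2% rose, and 12.7%, 13.4%, 12.4% and 10.7% fell. The balance of directions depended on whether quantile normalization was used. Median centring gave 7 members higher and 3 lower, with 61.1% of the calls over all genes higher. With 16 added to each intensity these values were 10, 3 and 60.3%. When the deposited values were quantile normalized, 5 members were higher and 5 lower, in place of 7 and 3. Over all genes 44.0% of calls were then higher, in place of 59.0%. The members' median was then 0.07 and that of all genes -0.07.

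**Figure D4:**
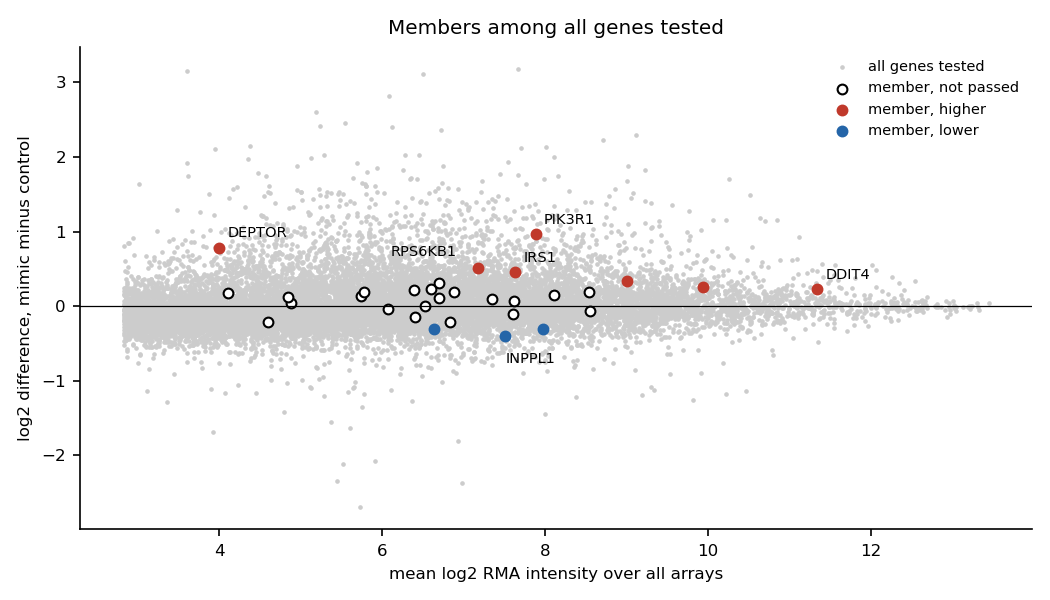
Log2 difference (mimic minus control, vertical axis) against the mean log2 RMA intensity over the 4 arrays (horizontal axis) for the 14340 genes tested (light grey) and the 31 members (red higher, blue lower, open did not pass). The members lie inside the cloud of all genes, between -0.40 and 0.96.

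The calls depended on having all 4 arrays. Without mimic replicate 1 or 2, limma called 0 of 31 members and 0 of 14340 genes, while 9 and 10 members, and 4198 and 4269 genes, had an unadjusted p under 0.05. PIK3R1 was the 1 member that passed without either control replicate. Over these 4 fits the differences of the 10 called members kept their sign. Their groups did not overlap, so leaving out 1 array could not change a sign.

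The promoters of PIK3R1 and IRS1, partners that both rose, and of INPPL1, the phosphatase gene that fell most, are shown as the 250 bases before the RefSeq start of each gene on GRCh38.p14, 5′ to 3′ along the gene's strand. Capitals mark the GC box GGGCGG, bound by factors of the SP1 family, on either strand. PIK3R1 has several promoters that give different isoforms, and the table holds the start of 1 of them. The stretches lie at chr5:68215506-68215755 (plus strand) for PIK3R1, chr2:226799821-226800070 (minus strand) for IRS1 and chr11:72223313-72223562 (plus strand) for INPPL1.
PIK3R1: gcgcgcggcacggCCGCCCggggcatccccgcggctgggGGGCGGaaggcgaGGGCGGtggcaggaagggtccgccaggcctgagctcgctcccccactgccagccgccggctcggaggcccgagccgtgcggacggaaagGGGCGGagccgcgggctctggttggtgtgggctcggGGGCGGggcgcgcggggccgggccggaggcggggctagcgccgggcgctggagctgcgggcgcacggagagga
IRS1: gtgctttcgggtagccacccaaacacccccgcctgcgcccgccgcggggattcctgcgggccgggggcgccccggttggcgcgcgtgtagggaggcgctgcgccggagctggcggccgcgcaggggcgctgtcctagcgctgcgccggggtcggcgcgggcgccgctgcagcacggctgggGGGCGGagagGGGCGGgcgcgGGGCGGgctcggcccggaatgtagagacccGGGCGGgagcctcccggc
INPPL1: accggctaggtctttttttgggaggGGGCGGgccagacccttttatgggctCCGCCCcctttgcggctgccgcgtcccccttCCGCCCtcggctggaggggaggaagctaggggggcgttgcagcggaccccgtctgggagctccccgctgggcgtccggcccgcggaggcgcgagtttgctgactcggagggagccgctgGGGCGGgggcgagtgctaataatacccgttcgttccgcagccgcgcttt
The GC box occurred 5 times in the PIK3R1 stretch and 4 times each in those of IRS1 and INPPL1, whose bases are 81.6%, 80.8% and 70.0% G or C. It was present in 22 of 28 members with a promoter in the table (78.6%), PIK3CA and PIK3R2 among them. The box was also in 63.1% of the promoters of genes tested and in 42.3% of all 27305 promoters of the same length. Of the called members with a promoter in the table, 3 of the 5 that rose and 3 of the 3 that fell held it. Other short motifs were searched on both strands in the same windows. The forkhead motif GTAAACA of the AKT-restrained FOXO factors was found in 1 of 28 members, PIK3CA, whose expression was not analysed here, beside 2.98% of all promoters and 1.89% of those of genes tested. The E-box CACGTG was found in 2 of 28 (7.14%), RRAGC and TSC2, beside 6.49% of all promoters and 8.38% of those of genes tested. The cAMP response element TGACGTCA was found in 0 of 28, beside 1.77%, and CCAAT in 11 of 28, beside 34.4% of the promoters of genes tested. None of the 5 members that rose and the 3 that fell with a promoter in the table held the FOXO motif. A match is a run of letters and not a measured binding site.

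Genes around the core were described from 6 lists. Among receptors and adaptors, 3 of 12 rose and 2 fell, or 41.7% called beside 30.1% of all genes, with a median of 0.01. INSR, the insulin receptor gene, rose 1.83-fold (0.87 ± 0.0601 SE, limma adjusted p = 0.00176). The adaptor genes GRB14 (0.63) and GRB10 (0.60), whose products bind the insulin receptor and restrain it, also rose. PIK3IP1, which encodes a membrane protein that inhibits the PI3K catalytic subunit, fell by 0.39. The settings that ended the PIK3IP1 call included no dim filter, the mean of its probe sets (-0.23) and the omission of _s_at and _x_at probe sets (-0.04). With the mean of probe sets INSR was at 0.42 and GRB14 at 0.31, and both passed, while GRB10 was at 0.22 and did not. With 16 added to each intensity GRB14 was at 0.39, GRB10 at 0.37 and PIK3IP1 at -0.24, and all 3 passed.

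Of 18 other PI3K and phosphoinositide genes, 5 rose and 3 fell (44.4% called, beside 30.1% of all genes), with a median of -0.02. The phosphoinositide phosphatase gene SYNJ1 rose 1.69-fold (0.76 ± 0.0604 SE, limma adjusted p = 0.00239), and the phosphatase genes INPP5E (0.41) and INPP4A (0.40), the paralog of INPP4B, also rose. The kinase gene PIP4K2C, whose product makes a bisphosphate from PI5P, fell by 0.53. With the mean of probe sets INPP5E was at 0.17 and INPP4A at 0.26, and neither passed. Of 22 genes of related kinases, mTOR accessory proteins and AMPK, 3 rose and 0 fell in limma (13.6% called, beside 30.1% of all genes, and 4 at an unadjusted p under 0.05 in either direction), with a median of 0.07. STRADB, the gene of a pseudokinase partner of LKB1, rose 1.98-fold (0.98 ± 0.0576, adjusted p = 0.0013), PDCD4, the gene of a translation inhibitor that S6 kinase marks for degradation, rose 1.60-fold (0.68 ± 0.0571, adjusted p = 0.00267), and TRIB3, the gene of a stress-induced pseudokinase, rose by 0.31. With 16 added to each intensity STRADB was at 0.51 and passed.

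The lysosomal amino acid sensing list held the largest difference of the 6 lists on the brightest probe sets, that of SEH1L. Of 27 tested, 7 rose and 4 fell, or 40.7% called beside 30.1% of all genes, with a median of -0.07. SEH1L, whose product is a subunit of both GATOR2 and the nuclear pore, rose 2.42-fold (1.28 ± 0.0616 SE, limma adjusted p = 0.00112). With the mean of probe sets SEH1L was at 0.79, below LAMTOR3 at 1.02. LAMTOR3, a subunit of the Ragulator complex that anchors the Rag GTPases, rose 2.01-fold (1.01 ± 0.0655, adjusted p = 0.00157), and SESN1, the gene of a GATOR2-binding sestrin, rose 1.49-fold. SLC38A9, the gene of the lysosomal arginine sensor, fell 1.48-fold (-0.56 ± 0.0768, adjusted p = 0.00851).

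**Figure D5:**
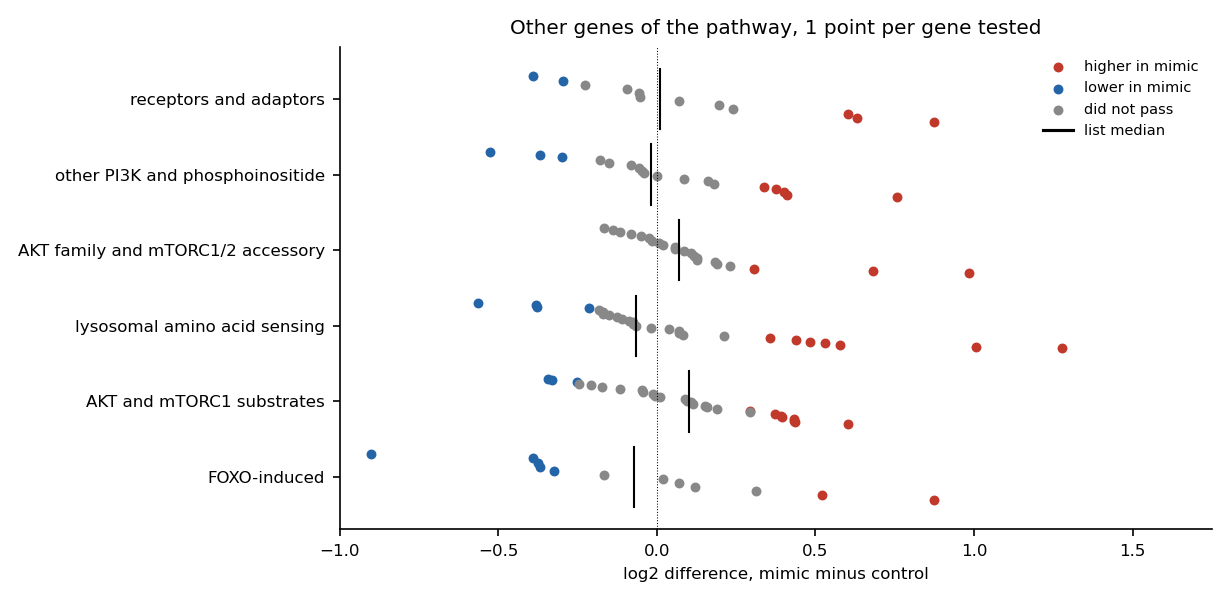
Log2 difference (mimic minus control, horizontal axis) of the genes tested in each of the 6 other lists, 1 point per gene, red higher, blue lower and grey did not pass, with a black line at the list median. Points are spread vertically by rank only. Every list has its median between -0.07 and 0.10, with called genes on both sides except among the AKT family and mTOR accessory genes.

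Of 28 AKT and mTOR complex 1 substrates and the translation factors they control, 8 rose and 3 fell (39.3% called, beside 30.1% of all genes), with a median of 0.10. GRB10, which is also an mTOR substrate and is given above, led, followed by TBC1D1 (0.43), the gene of an AKT-regulated RAB GTPase activator, CAD (0.43), the gene of the first enzyme of pyrimidine synthesis and an S6 kinase substrate, and POLDIP3 (0.43), the gene of the S6 kinase partner SKAR. TBC1D1 was at 0.15 without _s_at and _x_at probe sets, and POLDIP3 at -0.09 in that setting and at 0.03 with the mean of its probe sets, none of which passed. TBC1D1 with the mean of its probe sets was at 0.23 and passed. Of 12 genes known as FOXO targets in other cells, 2 rose and 5 fell, with a median of -0.07. This is 58.3% called, with 16.7% higher and 41.7% lower, beside 17.7% and 12.3% of all genes. TXNIP, which encodes a brake on glucose uptake, fell 1.87-fold (-0.90 ± 0.0704 SE, limma adjusted p = 0.00227), and PIK3IP1, described above, fell too. INSR and the co-regulator gene CITED2 (0.52) rose, and CITED2 did not pass with the mean of its probe sets (0.24). IRS2, a member that stands in this list too, is the one described with the adaptors.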

How the data were processed

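The deposited values were 1 intensity per probe set and array for 4 arrays. The authors made them with RMA (background correction, normalization across arrays, 1 summary per probe set), per the submitters' processing notes. Its software is not given in the sources used here. As deposited, intensities ran linearly between 1.62 and 11401, and log2 was taken. RMA compresses differences of dim probe sets, no detection calls were used, and the number of arrays limits the precision. Of 49293 probe sets, 44988 had 1 gene symbol, 1832 several and 2473 none. Symbols were updated by gene identifier through the RefSeq table of GRCh38.p14 (44961 matched, 27 kept the annotation's symbol).

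The dimmest 30% of probe sets (mean log2 below 2.83, an intensity of 7.10) were left out. The brightest probe set over the 4 arrays stood for its gene, which left 14340 of 18132 genes. The fit was limma 3.58.1 in R 4.3.3 (lmFit and eBayes, 4.98 total degrees of freedom), mimic minus control, with Benjamini-Hochberg adjustment over all genes and a threshold of 0.05. Every adjusted p is from limma. Errors are moderated standard errors. A second fit took all 31711 probe sets with 1 gene above the same level. The fit was tested on simulated data.

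The members and the lists were chosen with earlier results of these data known, so lists carry no test. Every member is accounted for; each other list names up to 4 called genes with the largest difference. The lists were receptors and adaptors, other PI3K and phosphoinositide genes, related kinases and mTOR accessory genes, lysosomal amino acid sensing, substrates, FOXO targets, and 3 marker lists. Alternatives changed the dim filter, the probe set per gene, the normalization, an intensity offset of 16, the variance model, the replicate block and the arrays included. Promoters and microRNAs came from RefSeq tables. Promoters matched 28 of 33 members; those of MLST8, AKT1S1, EIF4EBP1, DEPTOR and RRAGD were not used here.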

Additional observations from a re-analysis of the deposited data

How the results depend on the processing

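Over the settings that kept all 4 arrays, 13 of 89 values of the 10 called members no longer passed, and 0 changed sign. PIK3R1, RPS6KB1, EIF4EBP1, INPPL1 and IRS1 passed in every one of these settings. Of 185 values of the 21 members that did not pass, 13 passed and 7 had the other sign. On leaving out each array in turn, 0 to 1 members passed as higher and 0 as lower, 0 to 796 of all genes as higher and 0 to 167 as lower, 0 to 9 genes of the other lists as higher and 0 to 2 as lower (26 and 16 with all arrays), and 0 member probe sets in either direction. After quantile normalization 5 members were lower. The members' median of 0.14 became 0.0665 with quantile normalization, 0.0733 with the mean of probe sets and 0.0941 with 16 added to each intensity. Without _s_at and _x_at probe sets 10 genes of the other lists were lower and POLDIP3 turned to -0.0944. With no dim filter 3 member probe sets were lower. The cause of these shifts was not tested. The replicate differences of the 2 groups had a correlation of -0.00105 across genes. That value does not tell whether arrays with the same replicate number were handled as a pair. With the replicate number as a block, 979 of all genes and 10 genes of the other lists were lower, 9 member probe sets were higher and 2 lower, PIK3CD, RHEB and DDIT4 did not pass (adjusted p = 0.0658, 0.0756 and 0.0790), nor did TRIB3 (0.0691), PIK3IP1 (0.0581), TYROBP (0.0641) and CD53 (0.0688), and IRS2 did (adjusted p = 0.0479). With 2 arrays a group, small differences such as those of MTOR and AKT2 are at the limit of what could be called.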

Other observations

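The control arrays were further apart than the mimic arrays for 23 of the 31 members tested, beside 57.8% of all genes. The median SD over the members was 0.0336 between mimic arrays and 0.0726 between control arrays. Among the called members this held for 7 of 10, PIK3R1 and DEPTOR having control SDs of 0.201 and 0.256. This was not tested.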
